A study of Caenorhabditis elegans with 2 samples.

Results

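The genes described here encode the machinery that carries proteins into and through the secretory pathway of Caenorhabditis elegans, together with the Rab, Arf and Arl small GTPases that direct membrane traffic. They are the 61 protein-coding genes whose symbols start with sec-, srpa-, spcs-, sar-, arf-, arl- or rab-, or with cop, a letter and a hyphen, out of 19973 protein-coding genes on the 6 nuclear chromosomes. Membership follows from the symbol alone and uses no measured value, but the list was chosen with earlier results of these data known. By prefix there were 20 rab, 19 sec, 7 cop, 6 arl, 3 arf, 3 spcs, 2 srpa genes and 1 sar gene. Binding was measured by chromatin immunoprecipitation followed by sequencing (ChIP-seq) against an eGFP fusion of C34F6.9, in whole second-stage (L2) larvae of pooled sex. All larvae were of strain OP324, with the genotype unc-119(ed3) III; wgIs324, so both replicates carry the unc-119 mutation and the wgIs324 insertion. The labels do not say what drives the fusion, in which cells it is made or what C34F6.9 does. There was 1 group of 2 biological replicates and no second condition, so nothing below is a change. The authors' signal values rank peaks within a list, and rank 1 is the highest. The lists hold no read counts, so the depth of the libraries is unknown.

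Proteins bound for secretion or for membranes are recognised by the signal recognition particle as they leave the ribosome and are passed to the Sec61 channel of the endoplasmic reticulum, where signal peptidase removes the signal sequence. The COPII coat, started by the GTPase Sar1, then packs cargo into vesicles for the Golgi, and the COPI coat, recruited by Arf GTPases, carries material back. Rab GTPases mark single membrane compartments and recruit tethers such as the exocyst, which holds secretory vesicles at the plasma membrane until SNARE proteins fuse them. In the worm many of these genes are needed in all cells, while some Rab and Arl genes are known for neurons, cilia or endosomes.

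The sequence at the summits is shown first, for the highest-ranked gene of each of 7 role groups with a summit clear of annotated exons. The set shows the DNA under a high-ranked peak for each of these steps of the pathway, and rab-18 and sec-22, with exons close to their summits, are not shown. Each stretch is from the RefSeq copy of WBcel235 (ce11), runs 50 bases to either side of the optimal summit and is written 5′ to 3′ on the strand of the named gene. Capitals mark matches to any of 6 motifs searched on both strands. One is the GA repeat GAGAGA, and another the longer word CTGCGTCT. The palindromes searched were the GC repeat GCGCGC and the E-box, which is written CACGTG. The last pair were the core of the TATA box, which reads TATAAA, and the word TTTCGC. Where 2 matches overlap or touch, they form a single run of capitals, as at sec-61.G and arf-1.
sec-61.G (chrV:10897315-10897415, minus strand): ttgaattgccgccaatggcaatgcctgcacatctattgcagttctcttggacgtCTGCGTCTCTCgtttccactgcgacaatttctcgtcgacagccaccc
sec-3 (chrX:3099969-3100069, minus strand): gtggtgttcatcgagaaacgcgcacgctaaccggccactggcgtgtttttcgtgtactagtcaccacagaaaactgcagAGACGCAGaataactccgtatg
spcs-2 (chrIII:12874840-12874940, plus strand): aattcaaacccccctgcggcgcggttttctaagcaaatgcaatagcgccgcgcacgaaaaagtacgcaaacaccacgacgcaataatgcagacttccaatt
sar-1 (chrIV:4513640-4513740, minus strand): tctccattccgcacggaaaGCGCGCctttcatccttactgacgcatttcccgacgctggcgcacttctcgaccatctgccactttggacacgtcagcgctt
copz-1 (chrII:10872696-10872796, plus strand): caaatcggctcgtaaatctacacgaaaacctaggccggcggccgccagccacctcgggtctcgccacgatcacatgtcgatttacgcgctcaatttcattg
arf-1 (chrIII:5715612-5715712, plus strand): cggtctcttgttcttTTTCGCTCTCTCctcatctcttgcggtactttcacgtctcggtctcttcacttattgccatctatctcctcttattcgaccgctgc
rab-39 (chrII:9323082-9323182, minus strand): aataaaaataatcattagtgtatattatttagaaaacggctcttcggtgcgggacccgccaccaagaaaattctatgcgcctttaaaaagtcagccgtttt

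Matches were few, and no motif was common to these genes. At sec-61.G a CTGCGTCT match overlapped the reverse complement of GAGAGA, and sec-3 held CTGCGTCT in reverse complement. GCGCGC lay in the window of sar-1, and arf-1 held TTTCGC beside the reverse complement of GAGAGA. Those of spcs-2, copz-1 and rab-39 held none of the 6. Over the summits of all 31 genes with a peak, TTTCGC was found at 5 (16.1%), against 12.7% of the 2741 summits near any coding 5′ end and 6.78% of same-length windows centred 150 bp upstream of all 19973 genes. GAGAGA was found at 4 (12.9%), against 25.7% of the 2741 and 8.42% of gene windows. CTGCGTCT and GCGCGC were at 3 each (9.68%), against 11.3% and 8.10% of the 2741 summits and 1.48% and 1.43% of gene windows. TATAAA was at 2 (6.45%, against 5.40% and 13.4%) and CACGTG at 1 (3.23%, against 3.83% and 1.78%). The median GC content of these windows was 49.5% for these genes and 44.6% for the 2741 summits.

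A peak lay at 31 of the 61 genes (50.8%, 95% Wilson interval 38.6% to 62.9%), against 17% of all protein-coding genes. A gene was counted where a summit of the authors' optimal list, which has 5692 peaks, was at most 500 bp from an annotated transcript start, called its 5′ end. Counted in the 5692 highest peaks of each replicate alone, it was 29 genes in replicate 1, against 17.1% of all coding genes, and 34 in replicate 2, against 16.7%. The share was thus above that of all coding genes in each list, and it varied between families. All 3 arf genes and sar-1 had a peak, as did 5 of 7 cop genes (71.4%), 2 of 3 spcs genes (66.7%) and 11 of 19 sec genes (57.9%, 36.3% to 76.9%). Among rab genes 7 of 20 had one (35%, 18.1% to 56.7%), and among arl genes 0 of 6, with an upper Wilson bound of 39.0%. The arl interval thus holds the 17% of all coding genes. With the prefixes joined, 21 of the 32 sec, srpa, spcs, sar and cop genes had a peak (65.6%, 48.3% to 79.6%), and 10 of the 29 Arf, Arl and Rab genes (34.5%, 19.9% to 52.7%). These intervals overlap, cover counting error only, and no test between families was made.

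**Figure D1:**
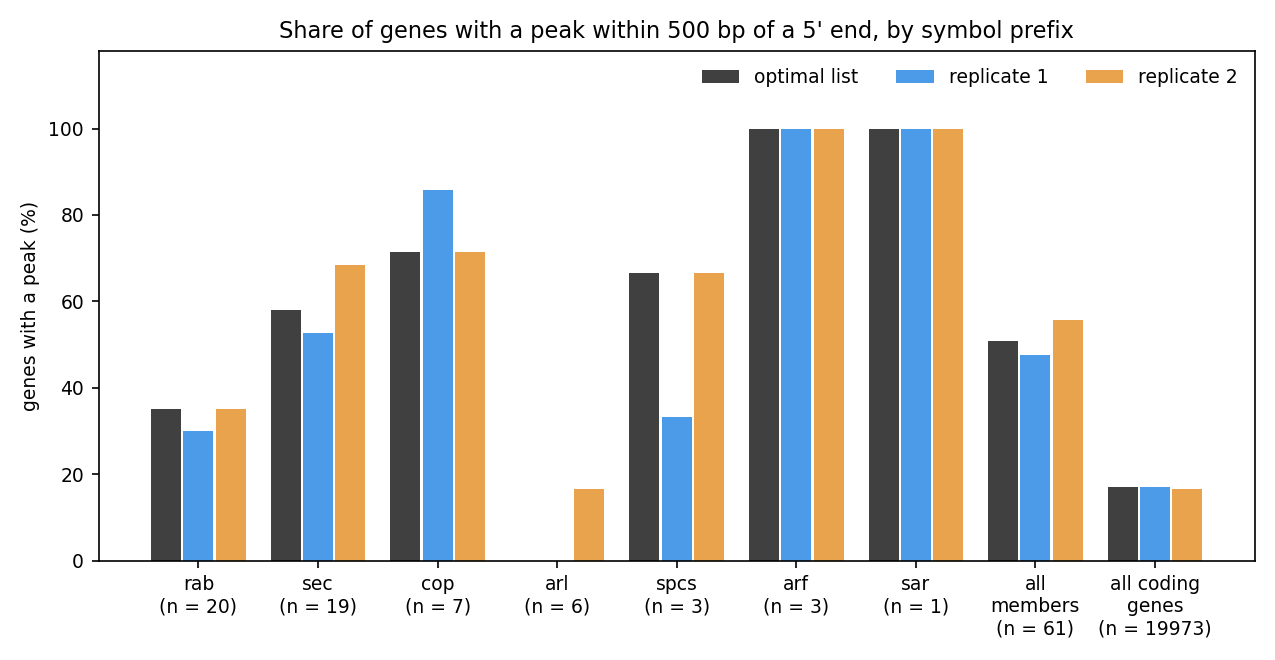
Share of genes with a peak within 500 bp of a 5′ end, in percent, for 7 symbol prefixes, all 61 genes and all 19973 coding genes, with a bar each for the optimal list, replicate 1 and replicate 2. The arf and sar bars stand at 3 of 3 and 1 of 1 genes in each list, and the arl bars at 0, 0 and 1 of 6 genes.

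Peaks at these genes were of about the same strength as at other bound genes. The median rank was 1623 for the 31 genes and 2089.5 for all 3400 bound coding genes. The strongest 2846 peaks held 21 of the 31 (67.7%), against 64.1% of bound coding genes, and the highest 569 peaks held 6 (19.4%), against 509 of the 3400. They included sec-61.G, rab-18, sec-3, sec-61.B and spcs-2. The optimal summit lay upstream of the 5′ end at 28 of 31 genes (90.3%), against 90.5%, at a median of -187 bp, against -168 bp. The exceptions were sec-61.A, cope-1 and rab-18, whose summits lay 148, 17 and 15 bp downstream of the 5′ end. Upstream here is of the nearest 5′ end. At sec-16A.1, rab-19, arf-1 and rab-30 that was an internal one, so their summits lay within the gene body.

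**Figure D2:**
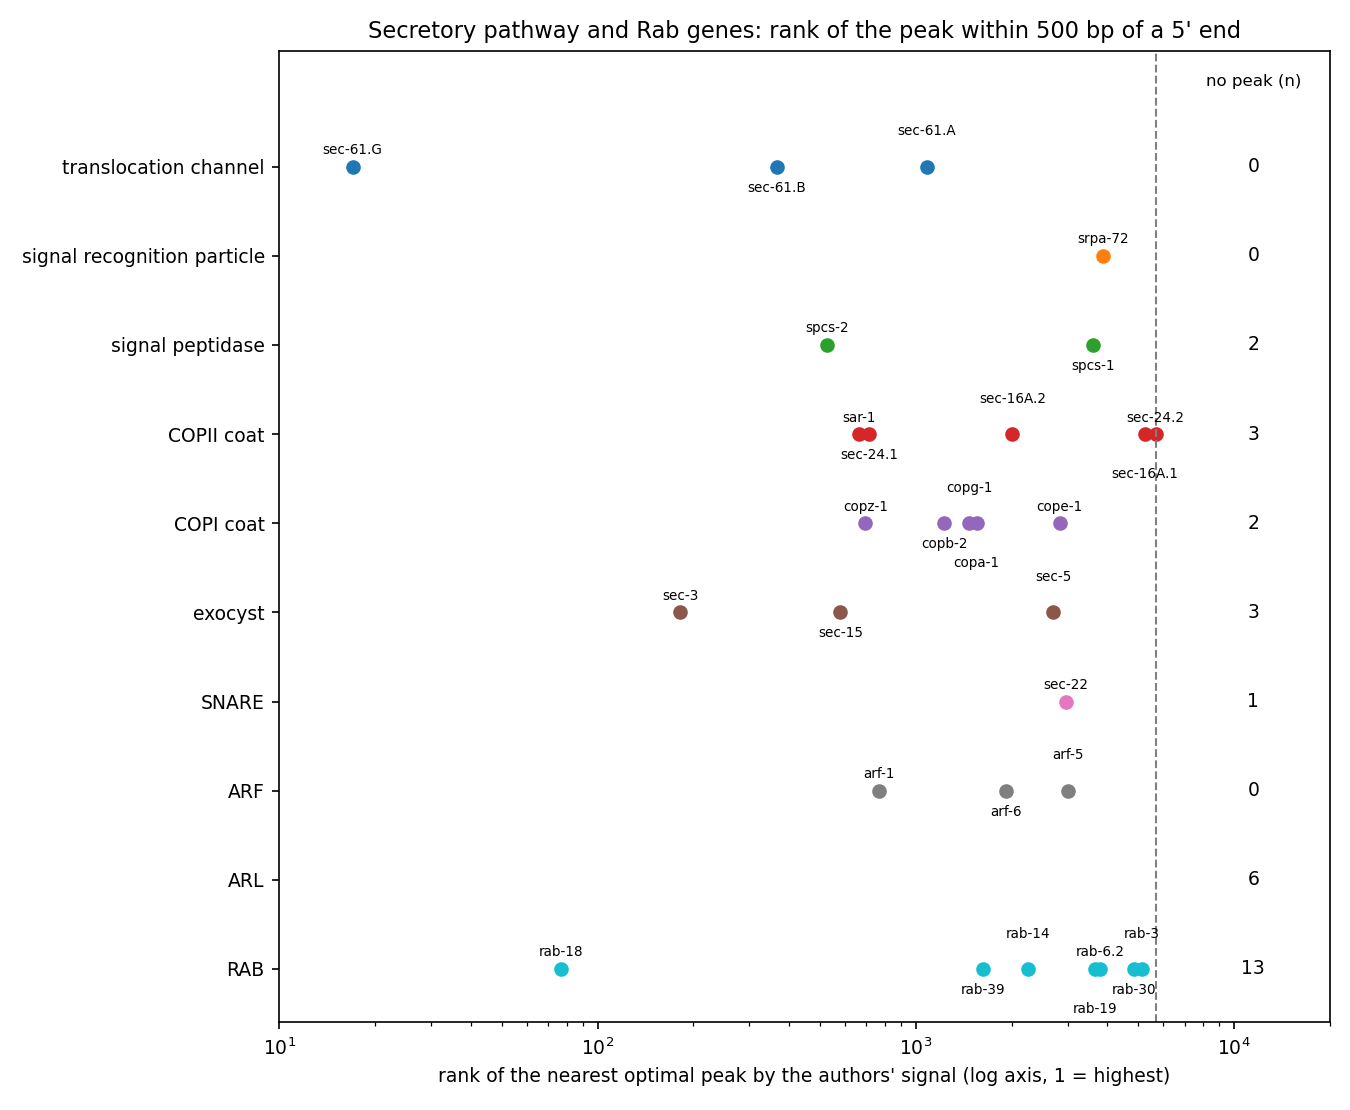
Rank of the nearest optimal peak by the authors' signal (horizontal log axis, 1 is the highest of 5692, dashed line) for 30 of the 31 genes with a peak, in rows by role group. The column at the right gives the genes of each group without a peak, and the far left holds sec-61.G (rank 17) and rab-18 (rank 77).

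The protein translocation channel had a peak at each of its 3 genes. The highest-ranked peak of the 61 genes was at sec-61.G (WBGene00001303), the gamma subunit of the channel, with the peak at chrV:10897204-10897534 and its summit 222 bp upstream of the 5′ end. It ranked 17 in the optimal list, 14 in replicate 1 and 27 in replicate 2. The beta subunit gene sec-61.B (WBGene00021427, chrIV:2389010-2389274) ranked 366 in the optimal list, 461 in replicate 1 and 314 in replicate 2. Its summit lay 474 bp upstream of sec-61.B but 296 bp from the 5′ end of trap-3, which encodes a subunit of the translocon-associated protein complex and is read on the opposite strand. This peak thus lies between a pair of genes for the same translocation machinery. Closer still were 5′ ends of the noncoding RNA genes Y38F2AR.16 and Y38F2AR.17, at 52 and 198 bp. The data do not give the peak to any of them. The alpha subunit gene sec-61.A (WBGene00013311, chrIV:14825060-14825248) ranked 1085, with 1231 in replicate 1 and 1044 in replicate 2.

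Among signal recognition particle and signal peptidase genes, spcs-2 had a strong peak, and srpa-72 and spcs-1 had weaker ones. The particle subunit gene srpa-72 (WBGene00017245, chrII:2787149-2787544) ranked 3884, 4187 and 4268 in the optimal list, replicate 1 and replicate 2. For signal peptidase, spcs-2 (WBGene00012550, chrIII:12874779-12874998) ranked 528, 492 and 607 in the same lists, and its peak was shared with mrg-1, a chromodomain protein gene 234 bp from the summit. The peak of spcs-1 (WBGene00016395, chrI:10682922-10683317) ranked 3605 in the optimal list and 3789 in replicate 2, and replicate 1 had no region within 500 bp. The catalytic subunit gene sec-11 and spcs-3 had no optimal peak within 500 bp. For spcs-3 the nearest optimal summit, of rank 62, lay 1035 bp upstream, with no other coding 5′ end within 500 bp of it.

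The COPII genes had a peak at 5 of 8. The GTPase gene sar-1 (WBGene00022678, chrIV:4513582-4513806) led them, at 665 in the optimal list, 595 in replicate 1 and 831 in replicate 2, with its summit 371 bp upstream. The inner coat gene sec-24.1 (WBGene00004755, chrIV:11566225-11566438) was close behind at 714, 726 and 722. Its paralog sec-24.2 (WBGene00004756, chrIV:12360938-12361333) ranked only 5678, near the end of the optimal list, with 17690 in replicate 1, where the highest region within 500 bp ranked 8325, and 5123 in replicate 2. So the copies of this coat subunit stood at different ends of the list. Their peaks also differed in setting, since that of sec-24.2 had the deadenylase gene ccr-4 on the opposite strand, 406 bp from its summit. Of the Sec16 genes, whose product organises the sites where COPII forms, sec-16A.2 (WBGene00017419, chrX:8286725-8287120) ranked 2012, 2064 and 1960. For sec-16A.1 (WBGene00013985, chrIII:9125924-9126319) the ranks were 5238 in the optimal list and 3869 in replicate 2, with no region in replicate 1. The other inner coat gene, sec-23, had no optimal peak, nor had the outer coat gene sec-31 or sec-12, which encodes the exchange factor of Sar1. Each of these 3 had a peak in a single replicate, sec-31 at rank 5096 in replicate 1, sec-12 at 3316 and sec-23 at 5255 in replicate 2. In the other replicate sec-31 had a weaker region (6345), as had sec-23 (9888), and sec-12 had none.

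Of the 7 subunits of the COPI coat, or coatomer, 5 had a peak and all 5 were among the strongest 2846 peaks. The zeta subunit gene copz-1 (WBGene00010333, chrII:10872665-10872865) ranked 695 in the optimal list and 780 in replicate 1. In replicate 2 the nearest region ranked 21090, but the highest within 500 bp ranked 664. It shared its summit with cyn-4, a cyclophilin gene on the opposite strand, at 133 bp from copz-1 and 135 bp from cyn-4. The beta′ subunit gene copb-2 (WBGene00009542, chrIV:9459231-9459626) ranked 1227, 885 and 2212 in the optimal list, replicate 1 and replicate 2. For the gamma subunit gene copg-1 the ranks were 1475, 1864 and 1183, for the alpha subunit gene copa-1 they were 1553, 1516 and 2008, and for the epsilon subunit gene cope-1 they were 2834, 2266 and 3907. The beta subunit gene copb-1 had no region within 500 bp in any list. The delta subunit gene copd-1 had its nearest optimal summit (rank 1877) 515 bp upstream, just outside the window, and a peak of rank 1676 within 500 bp in replicate 1. The coat thus had peaks at genes for most but not all of its subunits.

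The exocyst had peaks at 3 of 6 genes, and the 3 were among the strongest 2846 peaks. The highest was sec-3 (WBGene00018703, chrX:3099908-3100128), at 182 in the optimal list, 129 in replicate 1 and 336 in replicate 2. Next was sec-15 (WBGene00016188, chrX:8835835-8836095), at 580, 795 and 392, where the summit was only 17 bp from the 5′ end of C28G1.2 and 114 bp from a tRNA gene. The third, sec-5, ranked 2701, 2327 and 3937, with its summit 14 bp from pir-1, an RNA phosphatase gene on the opposite strand. For sec-6, sec-8 and sec-10 there was no optimal peak. Regions near sec-8 ranked 5936 in replicate 1, 7667 in replicate 2 and 6002 in the pooled list. Those near sec-10 were weak (17560 and 25444 in replicates 1 and 2), and sec-6 had none in any list. Of the SNARE genes, sec-22 (WBGene00018853, chrX:1035068-1035463) ranked 2961 in the optimal list and 3424 in replicate 1, and 26375 in replicate 2, where the highest region within 500 bp ranked 2532. Its summit was 20 bp from stau-1, which encodes an RNA-binding protein, and 282 bp from sec-22 itself. The other SNARE gene, sec-20, had no region within 500 bp in any list.

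The 3 arf genes had peaks, and the 6 arl genes had none. With only 6 genes, the arl Wilson interval of 0% to 39.0% holds the 17% of all coding genes. The highest arf peak was at arf-1 (WBGene00000182, chrIII:5715580-5715780), with rank 764. The summit lies within the gene body, 453 bp upstream of the more downstream of its 5′ ends, so arf-1 had no peak when only the most upstream 5′ end was used. The nearest regions of arf-1 in the replicates were weak, at 13305 in replicate 1 and 10361 in replicate 2, but the highest within 500 bp ranked 976 and 580. For arf-6, which works at the plasma membrane and endosomes, the peak (WBGene00000184, chrIV:16946905-16947003) ranked 1925 in the optimal list and 1729 in replicate 1. In replicate 2 its nearest region ranked 29831 and the highest one 2362. The optimal summit lay 160 bp from arf-6 and 160 bp from Y116A8C.9, a coding gene on the opposite strand. For arf-5 the ranks were 3003, 2949 and 3206, with the optimal summit 239 bp from arf-5 and 65 bp from the noncoding RNA gene F57H12.10. Among the arl genes, arl-8, known for lysosomes and for the transport of synaptic vesicle precursors, had a region of rank 5392 in replicate 2 and an optimal summit 562 bp upstream (rank 4493), which lay 43 bp from nuo-3. Weak pooled regions lay near arl-13 (rank 9092 of 30000), arl-3 (11757), arl-1 (14456) and arl-8 (26690), and none near arl-5 and arl-6. Counted over every pooled region, background included, 4 of 6 arl genes and 43 of all 61 genes had one, against 36.9% of all coding genes.

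Among the Rab genes a single strong peak stood out from 6 weaker ones. The peak of rab-18 (WBGene00004277, chrIII:1080564-1080900), a Rab of the endoplasmic reticulum and lipid droplets, ranked 77 in the optimal list, 47 in replicate 1 and 167 in replicate 2. Its summit was 15 bp inside rab-18 and 141 bp from kbp-4, on the opposite strand. The next, rab-39 (WBGene00004286, chrII:9323058-9323202), ranked 1623, 1211 and 2674, and rab-14 ranked 2251, 2259 and 1990. The other 4 were outside the strongest 2846 peaks. They were rab-19 (3662, with 4245 in replicate 1 and 3122 in replicate 2), rab-6.2 (3801, 3417 and 4625), rab-30 (4849, 14817 and 6231) and rab-3 (5148, 8086 and 3721). The synaptic vesicle gene rab-3 was thus among the weakest, and it had a peak in replicate 2 alone of the replicates. In rab-30 the summit lies within the gene body, upstream of the second 5′ end, and the highest region within 500 bp in replicate 1 ranked 4268. The median rank of the 7 was 3662, below that of all bound coding genes.

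The paralog pairs of the Rab genes did not behave alike. Of the Golgi Rab pair, rab-6.2 (WBGene00004270, chrX:17222090-17222485) had an optimal peak. Its paralog rab-6.1 (WBGene00004269, III) had only a weak region, ranked 23799 in replicate 1 and 24621 in the pooled list, and none in replicate 2. Neither gene of the rab-11 pair of recycling endosome Rabs had an optimal peak. A region near rab-11.1 (WBGene00004274, I) ranked 10082 in replicate 1 and 5191 in replicate 2, and rab-11.2 (WBGene00004275, I) had none in any list.

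The Rab genes without a peak included several that are known in most cells, and for 5 of these a summit lay just outside the window. They were rab-1, rab-5, rab-7, rab-8, rab-10, rab-11.1, rab-11.2, rab-21, rab-28, rab-33, rab-35, rab-37 and rab-6.1. For rab-7, the Rab of late endosomes, the nearest optimal summit had rank 60 and lay 795 bp upstream, 182 bp from the 5′ end of W03C9.5, which is on the same strand. At rab-5, the Rab of early endosomes, a summit of rank 290 lay 715 bp upstream with no coding 5′ end within 500 bp. For rab-1, which acts between the endoplasmic reticulum and the Golgi, a summit of rank 1012 lay 522 bp upstream and 262 bp from C39F7.5 on the opposite strand. At rab-11.1 a summit of rank 745 lay 701 bp upstream, 280 bp from the ribosomal protein gene rpl-7. The summit at rab-8 (rank 4466) lay 540 bp upstream and 155 bp from D1037.1. Within 1000 bp, 12 of 20 rab genes (60%) and 38 of all 61 genes (62.3%) had a peak, against 21.6% of coding genes. Within 250 bp it was 5 rab genes (25%) and 20 of all 61 (32.8%), against 11.7%. Both counts therefore depend on the window. Just inside the 500 bp window were sec-61.B at 474 bp and arf-1 at 453 bp, and just outside it copd-1 at 515 bp and rab-1 at 522 bp. Annotated 5′ ends in this animal are often sites of trans-splicing, so the start of transcription may lie further upstream. Whether that holds for these genes was not tested.

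**Figure D3:**
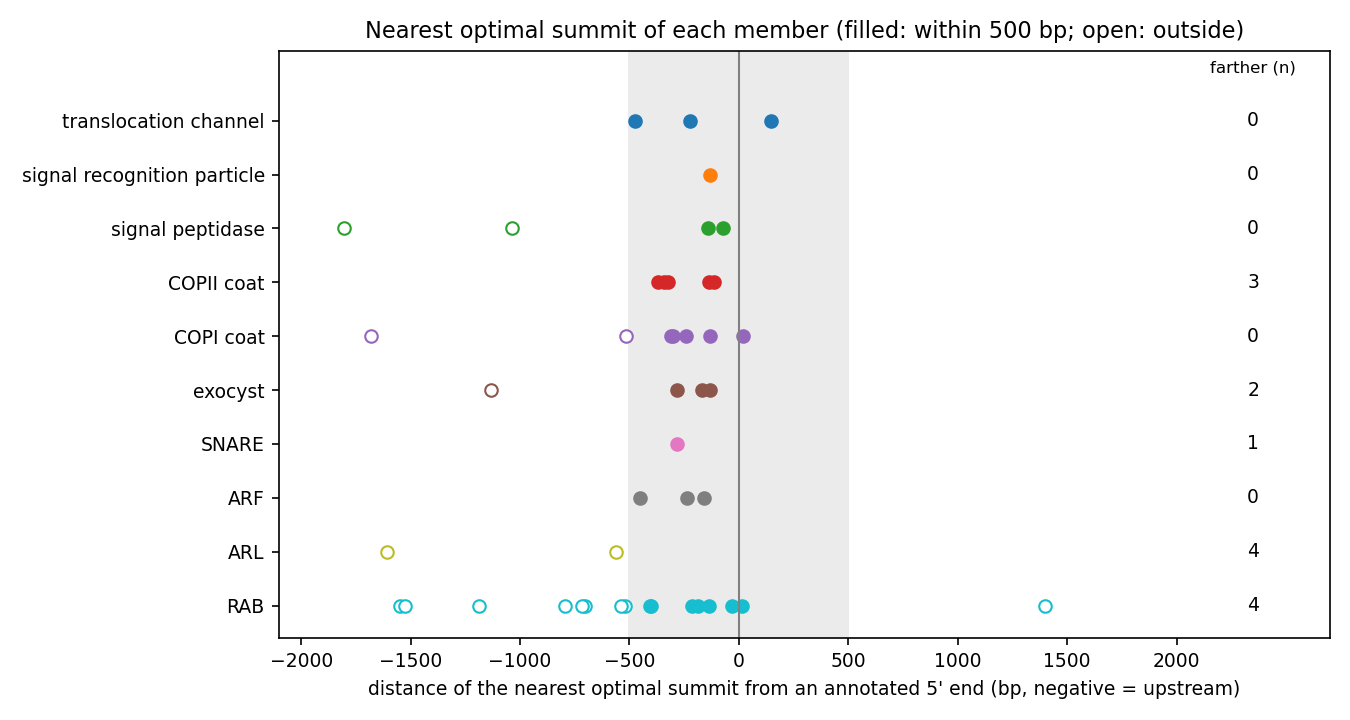
Distance in bp of the nearest optimal summit from an annotated 5′ end of 60 of the 61 genes, negative upstream, in rows by role group, with filled points within 500 bp (grey band) and open points outside it. The column at the right counts genes whose summit lies over 2000 bp away, and the open Rab points from -522 to -795 bp are rab-1, rab-8, rab-11.1, rab-5 and rab-7.

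Genes without a peak often followed another gene closely on the same strand, as genes of worm operons do. This property was looked at after the peaks had been seen. Of the 30 genes without a peak, 14 (46.7%) had the 3′ end of a same-strand coding gene within 500 bp upstream or overlapping, and of the 31 with a peak, 6 (19.4%). Over all coding genes the shares were 21.3% without a peak and 14.6% with a peak. For 10 of those 14 (71.4%), a gene further upstream in the same run had an optimal peak, against 37.0% of the 3525 coding genes in that position without a peak. The 10 were sec-6 behind bmy-1, sec-10 behind a run that holds imp-3 and rsp-6, sec-11 behind rpb-7, sec-20 in a run with ubc-20, arl-1 in a run with rpl-5, arl-5 behind panl-3, arl-13 in a run with rpb-10, rab-7 behind W03C9.5, rab-21 behind cyn-11 and rab-33 behind taf-11.3. The other 4 were spcs-3, sec-12, rab-11.2 and rab-28. With a peak at an upstream gene of the run counted too, 41 of the 61 genes (67.2%) had one, against 23.6% of coding genes. Whether these runs are transcribed as operons was not tested.

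The replicates ranked the genes alike. Of the 31 genes with an optimal peak, 26 (83.9%) also had one among the 5692 highest peaks of each replicate, against 85.8% of all bound coding genes. Only replicate 1 had rab-30, and only replicate 2 had rab-3, sec-16A.1, sec-24.2 and spcs-1. These 5 were at rank 3605 or weaker in the optimal list. In the other direction, copd-1 and sec-31 had a peak in replicate 1 alone, and arl-8, rab-11.1, sec-12 and sec-23 in replicate 2 alone, without an optimal peak. By the highest region within 500 bp, 29 genes had a rank in each replicate, with a Spearman rho of 0.902, given as a description since the optimal list that chose these genes came from the same reads. By the nearest region rho was 0.783. The lower value includes sec-22, copz-1 and arf-6, where a weak region of replicate 2 lay nearer to the 5′ end than the strong one.

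**Figure D4:**
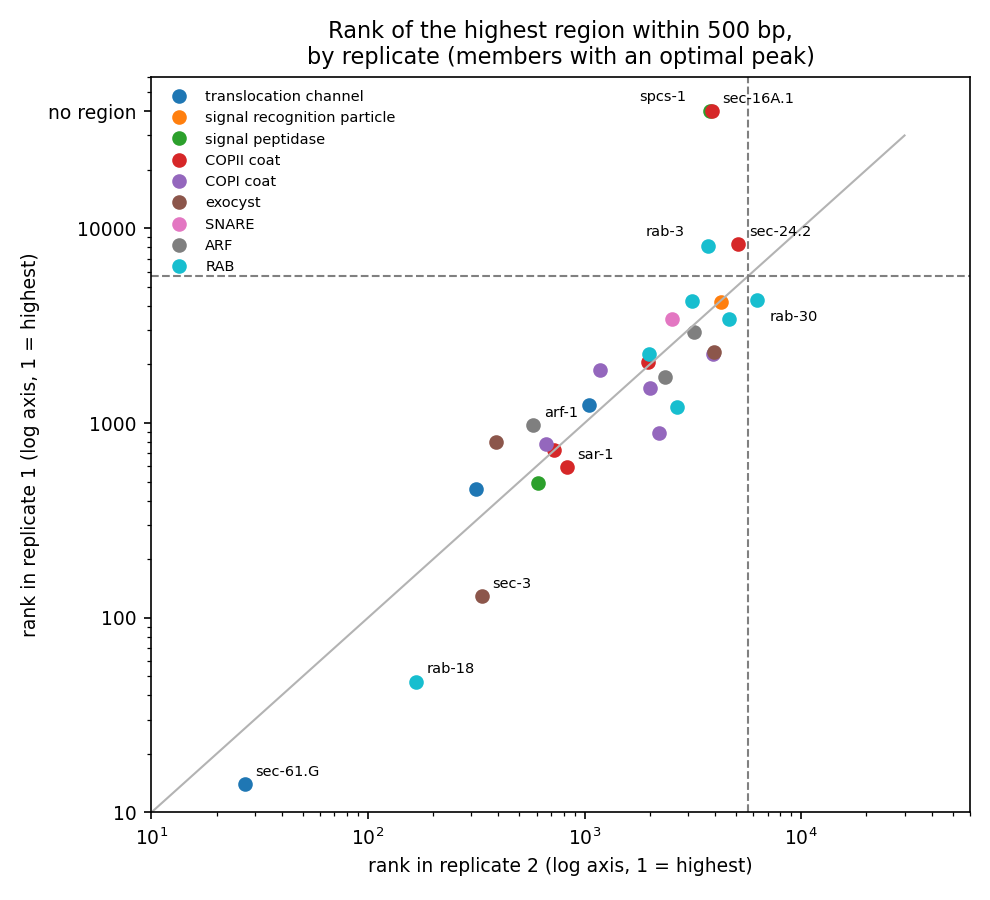
Rank of the highest region within 500 bp of a 5′ end in replicate 1 (vertical log axis) and in replicate 2 (horizontal log axis) for 30 of the 31 genes with an optimal peak, coloured by role group, with the line of equal rank and dashed lines at 5692. The genes follow the line from sec-61.G (14 and 27) downwards, and spcs-1 and sec-16A.1, placed at the top, have no region in replicate 1.

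Many of the peaks were shared with a neighbour. At 12 of the 31 genes (38.7%) the summit was also within 500 bp of the 5′ end of another coding gene, against 39.5% of all bound coding genes. Each such neighbour was on the opposite strand. A gene that is not protein-coding had a 5′ end within 500 bp of the summit at 6 of the 31 (19.4%), against 14.5% of bound coding genes. The member was the nearest coding gene, or tied for it, at 25 of 31 (80.6%), against 80.5%. The 6 with a nearer neighbour included sec-61.B, copa-1, sec-5, sec-15 and sec-22, and when only the closest coding gene was credited with a peak, 25 of 61 genes had a peak, against 13.8% of coding genes. That rule left 7 of 19 sec genes with a peak. With only the most upstream 5′ end of each gene it was 29 genes, against 16.1%, and with the strongest 2846 peaks 21 genes, against 11.1%, of which 3 were rab genes.

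Other genes of the pathway, with names outside the rule, had peaks about as often. Of 93 listed, 89 were found in the annotation, and 49 of these had an optimal peak (55.1%), against 17% of all coding genes. In replicate 1 it was 49, against 17.1%, and in replicate 2 it was 46, against 16.7%. All 10 translocon and glycosylation genes had one, with 8 in replicate 1 and 10 in replicate 2. They included trap-2, of the same complex as trap-3, at 297 in the optimal list, 402 in replicate 1 and 217 in replicate 2, and dad-1, a subunit of oligosaccharyltransferase, at 711, 649 and 896. The trap-2 peak was also that of ile-2, a cargo receptor gene, and the trap-3 peak is that given above for sec-61.B. The weakest of the 10 were stt-3 (4722, with no region in replicate 1) and ostd-1 (5043, with 7801 in replicate 1). Clathrin coat genes, counted together with the dynamin gene dyn-1, had 7 of 9, led by apb-1, an adaptor subunit, at 111, 106 and 121. Cargo receptors had 7 of 11, tethers 11 of 20 and SNARE machinery 8 of 21, with syx-5 at 243, 201 and 366. Regulators of Rab GTPases had 3 of 9 and those of Arf GTPases 2 of 6. Of the 3 Rab genes under other names, unc-108, which encodes the worm Rab2, had a strong peak at 335, 331 and 408, while glo-1 and aex-6 had none.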

How the data were processed

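The deposited narrowPeak lists in ce11 were used: the optimal list of 5692 peaks and 30000 regions each for the pool and both replicates. Per the deposited file listing, the authors called each replicate and the pool against a control library and thresholded by irreproducible discovery rate. The signal per peak is the authors' deposited value, used only to rank peaks within a list, and ties share the lower rank number. The aligner and peak caller were not given in the sources used here, and the ce10 lists were not used here. The control library was not analysed here. The summit was the peak start plus its deposited offset. Genes came from Ensembl release 115, without the 12 mitochondrial coding genes, and sequence from RefSeq WBcel235. A gene had a peak where a summit lay within 500 bp of a transcript's 5′ end, and the nearest summit was scored.

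No test was made. The 2 replicates form 1 group, and the labels call them biological. Intervals are 95% Wilson intervals over genes and cover counting error only. The members, gene lists and alternatives were chosen with earlier results of these data known. By rule, every member with a peak is named, except 1 that is not reported here, with peak position and ranks for the 2 highest of each role group and for paralog pairs. Role groups follow the symbols. Genes sharing a peak, those near summits outside the window and the same-strand runs were chosen after their values were seen. Of the other pathway genes, 4 had no match in the annotation. Assignment of peaks to genes was tested on simulated peaks at genes with a single 5′ end, far from those of other genes. Shared peaks and genes with several 5′ ends were not covered by it. The tools were pandas 2.3.3, numpy 2.4.6, matplotlib 3.10.9 and scipy 1.17.1 under Python 3.11.15.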

Additional observations from a re-analysis of the deposited data

How the results depend on the processing

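Counts for all 61 genes and for the sec, cop, arl and rab families moved by over 1.5 times only in the settings named here. Families of fewer than 5 genes were not compared in this way. Within 250 bp the total was 20 of 61, with 6 of 19 sec genes and 3 of 7 cop genes. Within 1000 bp there were 1 of 6 arl and 12 of 20 rab genes. When only the closest gene was credited, 7 sec genes had one. In the strongest 2846 peaks 3 rab genes had one, and over every pooled region 4 arl and 13 rab genes. With replicate 1 alone the total was 29, with 10 sec, 6 cop, 0 arl and 6 rab genes, and with replicate 2 alone 34, with 13 sec, 5 cop, 1 arl and 7 rab genes. The 31 ranks were the same with the highest optimal summit in the window. Motif shares followed the length searched. With 25 bp to either side GAGAGA was at 3.23% of these summits, against 15.2% of the 2741, CTGCGTCT at 3.23%, against 6.64%, CACGTG at 0%, against 2.15%, and TTTCGC at 6.45%, against 6.9%. With 100 bp GAGAGA was at 32.3%, against 36.4%, TTTCGC at 32.3%, against 23.5%, and TATAAA at 19.4%, against 16.6%. No paired analysis was possible because there is only 1 group. The lists hold no read counts, and the authors' control library was not analysed here, so a gene without a peak is not shown to be unbound. In whole larvae few cells with strong binding and many with weak binding cannot be told apart.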

Other observations

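The share of these genes with a peak was highest on the X chromosome and lowest on chromosome I. On X, 6 of 7 had an optimal peak (sec-3, sec-15, sec-16A.2, sec-22, rab-14 and rab-6.2, but not rab-37), against 13.8% of the 2731 coding genes of X. On IV it was 10 of 14, against 16.8%, and on chromosome I 2 of 11 (copa-1 and spcs-1), against 24.8% of its 2878 coding genes. On II it was 5 of 11, on III 6 of 14 and on V 2 of 4, against 16%, 25.5% and 10.6% of coding genes. In replicate 1 alone the counts on X and on chromosome I were 6 and 1, and in replicate 2 alone 6 and 4. The Wilson intervals were wide, 48.7% to 97.4% on X and 5.14% to 47.7% on chromosome I, and the latter holds the share of its coding genes. Within 1000 bp rab-5, rab-8 and rab-11.1 of chromosome I had a peak too, while rab-37 on X still had none. The difference between chromosomes was not tested.

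Peaks were more frequent at genes with several annotated 5′ ends, among these genes as among all coding genes. A summit near any 5′ end counted, so such genes had more windows in which a peak could be found. Of the 13 such genes 10 had a peak (76.9%), against 26.2% of coding genes with several 5′ ends. Of the 48 genes with a single 5′ end 21 had one (43.8%), against 13.7% of coding genes of that kind. With only the most upstream 5′ end counted, arf-1 and rab-30 were the genes that lost their peak. Why the shares differ was not tested.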
